A study of Homo sapiens with 6 samples.

Results

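Long intergenic non-protein-coding RNA genes carry placeholder symbols made of LINC and a number. The PRO-seq count table used here has 369 intervals with such a symbol among 20333 in all. The 361 with 10 or more counts in at least 1 library are described below, each with the protein-coding interval nearest to it by coordinates; the other 8 stayed under 10 counts in every library. The rule uses the symbol and a minimum count in any library, whichever its arm. The members lowest in count, LINC00943 and LINC01707, reached 13 counts in their highest library.

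T47D cells, a luminal line established from breast cancer that is positive for the estrogen receptor and negative for HER2, were grown in medium with a full set of growth factors. Treatment lasted 5 h and was with the solvent DMSO, with 500 nM GDC0068, a catalytic inhibitor of the AKT kinases, or with 100 nM INY-05-040, a compound that brings about degradation of AKT and is labelled Degrader. The doses differ and were picked by the submitters to suppress signalling below AKT to a similar extent. Each arm has 2 libraries, numbered 1 and 2, from 2 independent experiments, and all 6 come from 1 cell line.

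Most LINC genes are transcribed by RNA polymerase II into capped and often spliced RNA, but few have an assigned role, and many of the RNAs are unstable. PRO-seq (precision nuclear run-on sequencing) labels the RNA at the tip of engaged polymerases, so it counts transcription at a locus before RNA decay acts on it. AKT phosphorylates FOXO transcription factors and keeps them out of the nucleus, and forkhead factors of this family bind the core motif TGTTTAC. A LINC gene can share a promoter region with a coding gene on the opposite strand, lie downstream of one on the same strand, or lie far from any, which is why the nearest coding interval is given with each.

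Promoter windows from the RefSeq table were taken for at most 6 named members, 3 that rose and 3 that fell. Within each direction they follow the size of the change under Degrader, but not every larger change is included. The even split does not follow from size alone. Their sequence is shown so that members that rose and members that fell can be compared, except for LINC01619, whose window lies inside the interval of BTG1. Each window holds 250 bases before and 50 bases after the RefSeq start in GRCh38.p14, and capitals mark any match to the 5 motifs searched on both strands, TGTTTAC for forkhead factors, TATAAA for the TATA box, CACGTG for the E-box, TGACGTCA for the cyclic AMP response element and AGGTCA for the core of a nuclear receptor element, none of which contains another. LINC02680, LINC02067, LINC02569 and LINC02631 are named only.
LINC02362 (chr4:184382257-184382556, minus strand): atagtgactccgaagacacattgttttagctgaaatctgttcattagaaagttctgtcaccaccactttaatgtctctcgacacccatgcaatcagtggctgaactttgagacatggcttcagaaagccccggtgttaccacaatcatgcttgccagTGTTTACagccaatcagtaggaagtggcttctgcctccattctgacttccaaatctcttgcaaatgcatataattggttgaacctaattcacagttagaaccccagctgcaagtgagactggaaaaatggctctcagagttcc
LINC01219 (chr11:1990846-1991145, plus strand): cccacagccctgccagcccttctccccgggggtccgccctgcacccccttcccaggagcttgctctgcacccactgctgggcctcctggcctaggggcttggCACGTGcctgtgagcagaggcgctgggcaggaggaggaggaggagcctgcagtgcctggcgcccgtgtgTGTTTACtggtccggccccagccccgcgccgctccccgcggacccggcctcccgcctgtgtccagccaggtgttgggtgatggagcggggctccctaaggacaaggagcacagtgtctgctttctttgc
LINC02739 (chr11:59566081-59566380, minus strand): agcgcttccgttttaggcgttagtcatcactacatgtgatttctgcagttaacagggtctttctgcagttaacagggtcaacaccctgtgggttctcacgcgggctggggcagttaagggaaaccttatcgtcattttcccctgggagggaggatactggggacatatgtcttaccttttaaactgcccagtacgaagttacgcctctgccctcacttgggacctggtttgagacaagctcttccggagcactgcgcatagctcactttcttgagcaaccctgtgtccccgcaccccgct
LINC02043 (chr3:186825472-186825771, minus strand): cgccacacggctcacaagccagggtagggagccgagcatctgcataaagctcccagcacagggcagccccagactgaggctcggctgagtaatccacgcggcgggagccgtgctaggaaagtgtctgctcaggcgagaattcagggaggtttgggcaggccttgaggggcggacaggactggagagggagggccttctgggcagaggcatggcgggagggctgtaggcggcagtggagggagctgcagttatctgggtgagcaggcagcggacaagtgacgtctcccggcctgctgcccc
LINC01424 (chr21:44801991-44802290, plus strand): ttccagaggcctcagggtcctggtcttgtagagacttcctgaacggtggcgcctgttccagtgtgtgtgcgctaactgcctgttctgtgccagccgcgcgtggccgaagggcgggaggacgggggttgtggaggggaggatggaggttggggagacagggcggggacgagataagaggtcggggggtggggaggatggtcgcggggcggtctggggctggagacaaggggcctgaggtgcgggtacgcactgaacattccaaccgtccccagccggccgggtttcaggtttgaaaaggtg

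The windows of LINC02362 and LINC01219, both higher under Degrader, each hold 1 forkhead match, whose first base lies at -93 and -79 from the RefSeq start. That of LINC01219 also holds CACGTG at -148, and that of LINC01619, not shown, holds TATAAA at -231 and at 25. The 3 windows shown for members that fell hold none of the 5 motifs, and 0 of the 5 entries of members that fell hold any. Neither LINC01607 (-0.84) nor LINC02818 (0.54) is shown, though both changed more in size under Degrader than these 3. The deposited interval starts inside the window only for LINC02739. The start sites lie 345 bp apart for LINC02362, 722 bp for LINC01219, 88 bp for LINC01619, 171 bp for LINC02739, 625 bp for LINC02043 and 371 bp for LINC01424, so a window need not be the start that was active in these cells. Of the 361 members, 257 have a promoter entry. TGTTTAC is in 3.42% of all 35116 windows, in 11 of the 257 member windows (4.28%) and in 2 of the 25 windows of members that rose under Degrader. AGGTCA is in 13.8% of all windows, 41 member windows (16.0%) and 2 of the 25. TATAAA is in 11.5% of all windows, 26 member windows (10.1%) and 4 of the 25. CACGTG is in 7.26%, 24 (9.34%) and 1, and TGACGTCA in 1.85%, 7 (2.72%) and 1. How many of all windows hold none of the 5 motifs was not counted, so the 0 of 5 does not set the members that fell apart. A match here describes letters and not a bound site.

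Library totals ran from 25371819 to 32192576 counts, and a member's median count was 267 to 330 per library. Levels are in CPM, the usual unit of an interval's counts relative to the size of its library, scaled here by the trimmed mean of M-values. All 10 luminal markers checked, among them ESR1, GATA3 and KRT8, have an interval, with a summed level of 5588 to 6000 CPM. The lowest of the 10, TFF1, had means of 5.82 (DMSO), 4.99 (GDC0068) and 4.41 CPM (Degrader). Of 5 basal markers only EGFR has an interval (54.9 to 66.5 CPM). None of the 8 stromal, endothelial and blood markers has one in the table used here. Of the counts in a library, the members together took 0.689% and 0.686% with DMSO, 0.732% and 0.725% with GDC0068, and 0.737% in both Degrader libraries. Every treated library was above both DMSO libraries in this share.

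The label intergenic holds for most members. No other interval of the table overlaps 303 of the 361, while 58 overlap another, 24 of these on the same strand, and 8 overlap a protein-coding interval. Whether the counting used strand is not given in the sources used here, so reads of overlapping intervals cannot be told apart. A match by symbol or older symbol in a gene table of GRCh38.p14 was found for 347 members: 342 are long noncoding RNA there, 1 is a transcribed pseudogene and 4 are now coding, including LINC00672 (now LASP1NB) and LINC00634 (now SMIM45). Among the 342, 22 now bear the name of a coding gene with the suffix DT, for divergent transcript, such as LINC01135 (JUN-DT). Relative to the nearest of 12761 protein-coding intervals, 118 members were divergent, with the starts as the near ends and transcription running apart. Another 108 lay downstream on the same strand, 59 upstream on the same strand and 68 were convergent. The median gap was 25474 bp. For 55 members (15.2%) the start lay within 1000 bp of the neighbour's start on the opposite strand, called head-to-head below.

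Transcription of the members was low. Their median level was 10.6 CPM against 41.4 CPM for protein-coding intervals, and per kilobase of interval it was 0.886 against 1.57 CPM. Members ranged from 149 bp (LINC02560) to 511772 bp (LINC01414) in length, with a median of 10834 bp. The highest in CPM was LINC01138 on chromosome 1 (148290889 to 148459372), with 288 and 270 CPM under DMSO, 309 and 274 under GDC0068 and 299 and 275 under Degrader, with overlapping arms. It lies among the near-identical NBPF genes and overlaps 3 other intervals, so its reads may be shared with copies. Next was LINC01578, now called CHASERR, an RNA known to hold down the dose of its neighbour CHD2, then LINC01004, which overlaps KMT2E and KMT2E-AS1, and LINC01089.

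Per kilobase, the order was LINC02776 (35.1 CPM per kb), LINC02593 (31.1), LINC01126 (28.9), LINC01023 (26.0), LINC01089 (24.4), LINC00167 (21.8), LINC00173 (20.9) and LINC02809 (20.3). These intervals are short, and several sit beside coding starts: LINC02776 (now RC3H1-DT) starts 129 bp from RC3H1, and LINC01126 starts 460 bp from ZFP36L2, whose protein promotes mRNA decay. Of these 8, LINC02593 and LINC01089 (0.20, SE 0.054) were called under Degrader, LINC01089 not without any 1 of the DMSO and Degrader libraries (0.15 to 0.24). ZFP36L2 rose under both compounds, by 0.35 (SE 0.055) under Degrader and 0.38 (SE 0.055) under GDC0068 on the log2 scale (edgeR adjusted p = 0.002 and 0.00817), while LINC01126 gave 0.09 (SE 0.053) and 0.15 (SE 0.053) and was not called (0.311 and 0.148). The GDC0068 call of ZFP36L2 was lost without DMSO replicate 1 or GDC0068 replicate 2 (0.30 to 0.44).

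Under Degrader, more LINC intervals rose than fell. Of the 358 members that passed the filter on low counts, 41 rose and 7 fell against DMSO at an edgeR quasi-likelihood adjusted p under 0.05. Among all 19902 intervals tested, 15.3% were called, 7.39% higher and 7.88% lower, so the members' share called (13.4%) was near the background while their split, 11.5% higher and 1.96% lower, was not even. The median log2 fold change was 0.076 over the members and -0.001 over all intervals, and 217 members (60.6%, beside 49.7% of all intervals) lay above 0. On the log2 scale with a pseudocount of 0.5 CPM, the members' median was 0.063 in replicate 1 and 0.065 in replicate 2. No called change reached 2-fold, and the smallest was 0.20. With the replicate number as a block, 68 rose and 16 fell beside 30.7% of all intervals called (15.1% higher and 15.7% lower), and all 48 calls were kept with their sign. Without any 1 DMSO or Degrader library, fewer members were called, and fewer of all intervals too. Neither number fell without a GDC0068 library. All 48 kept their sign in each of these fits.

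**Figure D1:**
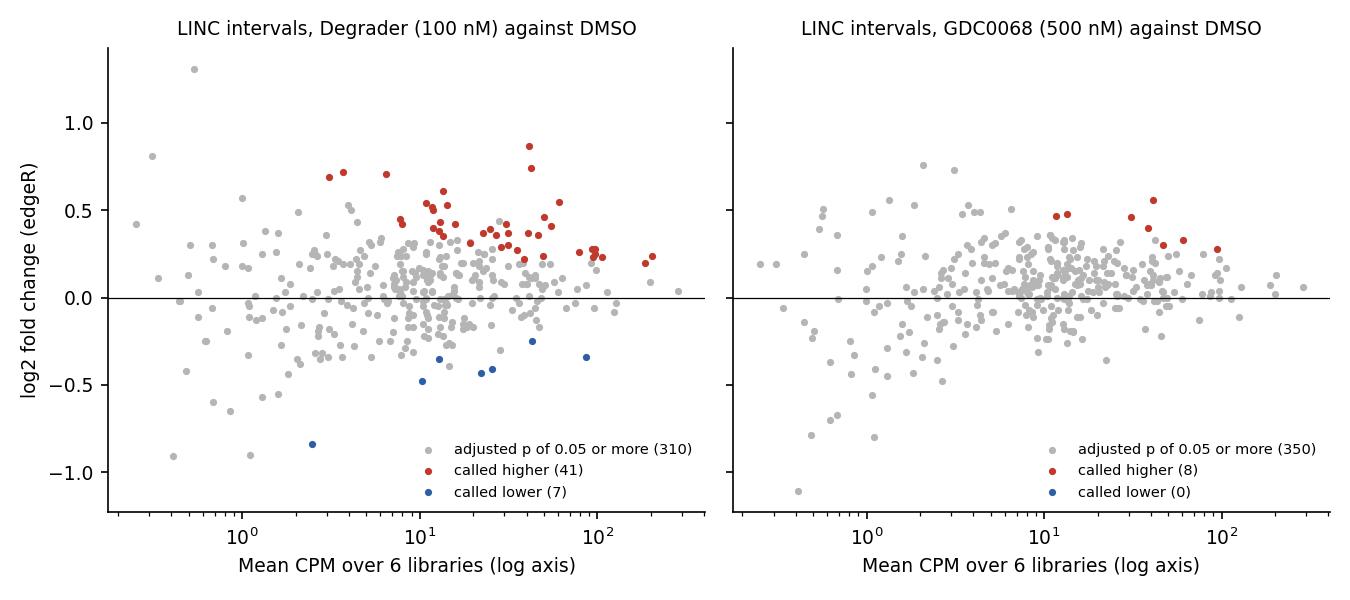
Log2 fold change (y axis) against mean level in CPM over the 6 libraries (x axis, log scale) for the 358 LINC intervals tested, for Degrader and for GDC0068, each against DMSO. Each point is 1 interval. Called intervals are red (41 and 8 higher) or blue (7 and 0 lower), and most called points under Degrader lie above 0 and above 5 CPM.

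The largest called increase was that of LINC02680 on chromosome 10 (27563889 to 27594588, plus strand), which lies 25749 bp downstream of RAB18, a small GTPase gene, and overlaps no other interval. It stood at 27.3 and 30.4 CPM under DMSO, 38.5 and 46.3 under GDC0068, and 49.1 and 56.1 under Degrader. No 2 arms overlapped, and Degrader was highest. The means were 28.8 ± 2.2, 42.4 ± 5.5 and 52.6 ± 5.0 CPM (SD, n = 2), and the increase under Degrader was 0.87 (SE 0.096) on the log2 scale, 1.83-fold (edgeR adjusted p = 3.48e-04). RAB18 itself rose by 0.22 (SE 0.054, edgeR adjusted p = 0.0211). LINC02067 on chromosome 3 (161426279 to 161448242, plus strand) was at 29.4 and 35.4 CPM under DMSO, 36.7 and 44.1 under GDC0068, and 49.3 and 58.5 under Degrader. Again no library of one arm overlapped another arm. The increase under Degrader was 0.74 (SE 0.11, edgeR adjusted p = 0.00147). Its divergent neighbour 54762 bp away, SPTSSB, encodes a small subunit of serine palmitoyltransferase, the first enzyme of sphingolipid synthesis, and rose from 88.2 and 91.2 CPM to 117 and 124 CPM (log2 change 0.43, SE 0.053, edgeR adjusted p = 5.78e-04).

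LINC01619 on chromosome 12 (91985090 to 92142743, minus strand) overlaps BTG1 on the same strand, and the pair start 3105 bp apart. It gave 45.8 and 52.5 CPM under DMSO, 60.9 and 62.0 under GDC0068, and 70.6 and 72.6 under Degrader. Libraries of the 3 arms did not overlap. BTG1, an antiproliferative gene known as a FOXO target, was at 107 and 112 CPM under DMSO, 152 and 138 under GDC0068, and 149 and 150 under Degrader. Here GDC0068 and Degrader overlapped. The increases under Degrader were 0.55 (SE 0.066) for LINC01619 and 0.44 (SE 0.056) for BTG1 (edgeR adjusted p = 5.38e-04 and 6.27e-04). Most of LINC01619 lies outside BTG1, but how the shared bases were assigned is not given, and their part in the result was not tested.

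The other 5 of the 8 largest increases were at members of lower level. LINC02569, 22096 bp downstream of HLA-E, went from 2.43 and 3.05 CPM to 4.0 and 4.94 (log2 change 0.72, SE 0.19). LINC02362, 5078 bp downstream of the transcription factor gene IRF2, went from 4.42 and 5.18 CPM to 6.96 and 8.68 (0.71, SE 0.16). LINC01219, 17581 bp downstream of MRPL23, went from 1.96 and 2.43 CPM to 3.41 and 3.64 (0.69, SE 0.21), with 2.99 and 4.17 under GDC0068. The rule that picked these members required their Degrader libraries to lie above both DMSO libraries. LINC02631, 28663 bp downstream of SPOPL, went from 10.6 and 10.1 to 14.8 and 16.9 CPM (0.61, SE 0.11), and LINC02818, 22114 bp downstream of TOR1AIP2, from 7.69 and 9.67 to 11.7 and 13.4 CPM (0.54, SE 0.13). The 5 edgeR adjusted p-values ran from 0.00388 (LINC02631) to 0.0477 (LINC01219), and DESeq2 gave LINC01219 no adjusted p. All 5 lie downstream of a coding interval on the same strand, an arrangement shared by 18 of the 41 members that rose and by 106 of the 358 tested. LINC02680, LINC02067 and LINC01619 were called in every fit without 1 library. LINC02631 lost its call without Degrader replicate 2 (0.50), LINC02569, LINC02362 and LINC02818 without DMSO replicate 1 or Degrader replicate 2 (0.37 to 0.88), and LINC01219 without any 1 of the 4 DMSO and Degrader libraries (0.54 to 0.84).

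The 7 decreases included 1 of the members with the most transcription per kilobase. LINC02593 on chromosome 1 (916870 to 919668, minus strand) was at 94.2 and 91.6 CPM under DMSO, 94.4 and 94.7 under GDC0068, and 76.2 and 71.1 under Degrader. Only the Degrader libraries were low. The decrease was -0.34 (SE 0.053) on the log2 scale (edgeR adjusted p = 0.00203) and stayed called in every fit without 1 library. Its divergent neighbour SAMD11, 6072 bp away, followed the same order, with 110 and 106, 113 and 105, and 93.9 and 86.0 CPM (-0.27, SE 0.058, edgeR adjusted p = 0.0108).

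LINC01424 and UBE2G2, a gene for a ubiquitin-conjugating enzyme of protein quality control in the endoplasmic reticulum, start 50 bp apart on chromosome 21. LINC01424 went from 28.3 and 28.6 CPM under DMSO to 21.3 and 21.4 under Degrader, with 29.1 and 25.5 under GDC0068. UBE2G2 went from 84.6 and 77.3 CPM to 66.5 and 59.8. Both fell, by -0.41 (SE 0.087) and -0.36 (SE 0.071) on the log2 scale (edgeR adjusted p = 0.0092 and 0.00661). LINC02043 (28.1 and 24.8 against 22.3 and 17.1 CPM) and RFC4, a subunit gene of the clamp loader of DNA replication 4412 bp away on the same strand, also fell together, by -0.43 (SE 0.13) and -0.24 (SE 0.066), with edgeR adjusted p of 0.0478 and 0.031. LINC02043 overlaps AC112907.1.

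The largest fall in size, that of LINC01607 on chromosome 8, was at the lowest level of the 7: 3.08 and 3.31 CPM under DMSO and 1.95 and 1.61 under Degrader (-0.84, SE 0.21). LINC02739 fell from 12.2 and 11.8 to 8.6 and 8.61 CPM, LINC01311 from 14.4 and 13.4 to 11.4 and 10.5 CPM, and LINC00472 from 44.6 and 47.2 to 38.1 and 38.9 CPM. The rule for naming required arms that do not overlap. The edgeR adjusted p-values of these 4 ran from 0.0126 (LINC02739) to 0.0417 (LINC01311). The neighbours MRPS28, OSBP, SLC25A1 and OGFRL1 were not called. Calls were lost without DMSO replicate 1 or Degrader replicate 2 for LINC01424 (-0.42 to -0.40) and also without DMSO replicate 2 for LINC02043 (-0.63 to -0.26) and LINC01607 (-0.98 to -0.72). They were lost without DMSO replicate 1 or either Degrader library for LINC02739 (-0.50 to -0.46), and without any 1 of the DMSO and Degrader libraries for LINC01311 (-0.41 to -0.30) and LINC00472 (-0.30 to -0.21). LINC01311 and LINC00472 also lost theirs with DESeq2, and LINC02043 with a robust spread estimate. DESeq2 gave no adjusted p for LINC01607, and it called 4 members lower.

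**Figure D2:**
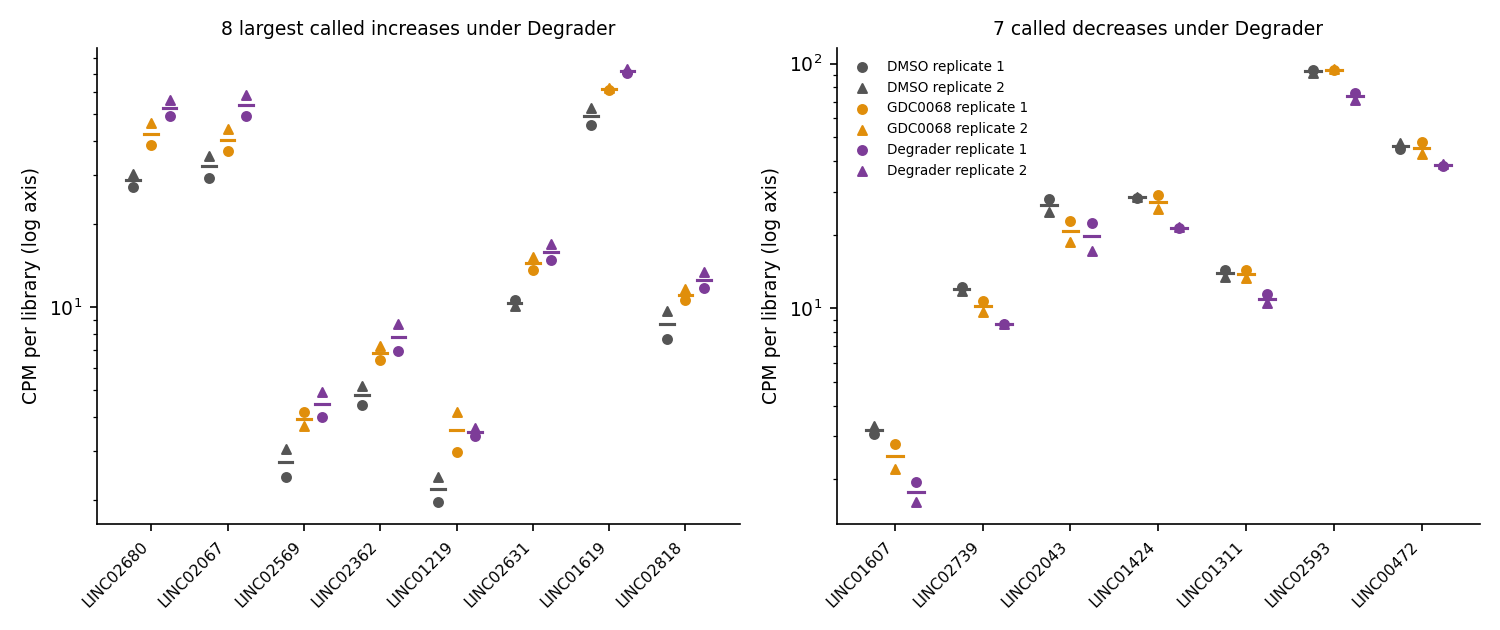
Level in CPM (log axis) of the 8 LINC intervals with the largest called increases and the 7 called decreases under Degrader, with 1 point per library and a bar at the mean of each arm (n = 2). LINC02680 and LINC02067 are lowest in the DMSO libraries and highest in the Degrader libraries, while LINC02593 is low in the Degrader libraries only.

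Under GDC0068, 8 members rose and 0 fell (edgeR adjusted p under 0.05). Among all intervals edgeR called 3.58%, 1.70% higher and 1.88% lower, against 2.23% and 0.00% of members. At an unadjusted edgeR p under 0.05 there were 59 higher and 10 lower, 69 of 358 members beside 3972 of 19902 intervals. DESeq2 also called 8 higher and 0 lower, beside 600 of all intervals. The members' median log2 fold change was 0.070, against 0.010 over all intervals, and 245 members (68.4%, beside 52.6% of all intervals) lay above 0. The median was 0.059 in replicate 1 and 0.065 in replicate 2 on the pseudocount scale. By level, the median log2 fold change under 5 CPM was 0.032 for members and 0.023 for all intervals. It was 0.077 and 0.053 at 5 to 20 CPM, and 0.083 and -0.005 at 20 CPM or more. With the replicate number as a block, 46 members rose and 4 fell, beside 17.8% of all intervals (8.87% higher and 8.91% lower). Without any 1 library fewer members were called, and fewer of all intervals too, with the larger losses without a DMSO or GDC0068 library.

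The 8 were LINC02680 (0.56, SE 0.097), LINC02631 (0.48, SE 0.11), LINC00939 (0.47, SE 0.10), LINC02649 (0.46, SE 0.11), LINC01503 (0.40, SE 0.064), LINC01619 (0.33, SE 0.067), LINC01006 (0.30, SE 0.070) and LINC02062 (0.28, SE 0.051), with edgeR adjusted p from 0.01 (LINC01503) to 0.0455 (LINC02649). LINC01503 on chromosome 9 was at 34.1 and 32.3 CPM under DMSO, 42.8 and 44.8 under GDC0068, and 38.9 and 38.7 under Degrader, so GDC0068 was the highest arm. LINC02649, 41949 bp downstream of PFKFB3, which encodes a regulator of glycolysis, was at 27.8 and 21.9, 35.5 and 32.9, and 35.9 and 30.9 CPM, where both treated arms overlap. PFKFB3 itself varied more between replicates (616 and 448 CPM under DMSO, 724 and 608 under GDC0068) and was not called under GDC0068 (edgeR adjusted p = 0.216). With the replicate block it was called under GDC0068 (0.34, adjusted p = 1.07e-06) and under Degrader (0.37, adjusted p = 4.89e-08). LINC01006 (now RNF32-DT) was at 38.6 and 41.0, 47.0 and 50.9, and 48.7 and 53.7 CPM, and LINC00939 at 9.37 and 9.04, 13.3 and 12.2, and 13.1 and 13.3 CPM. In both, the treated libraries lay above the DMSO libraries and the treated arms overlapped. Calls of LINC02680 were lost without DMSO replicate 1 or GDC0068 replicate 2 (0.41 to 0.68), those of LINC01619 also without GDC0068 replicate 1 (0.22 to 0.43), and those of LINC01503 without either DMSO library or GDC0068 replicate 2 (0.36 to 0.43). The other 5 calls were lost without any 1 of the DMSO and GDC0068 libraries, and that of LINC00939 without any 1 library (0.40 to 0.53).

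The comparisons of both compounds with DMSO use the same DMSO libraries, so their values are given side by side only. All 8 members called under GDC0068 were also called under Degrader with the same sign; for LINC00939, LINC02649, LINC01503, LINC01006 and LINC02062 the Degrader changes were 0.52, 0.42, 0.22, 0.36 and 0.28. The Degrader call of LINC01503 was lost with DESeq2 and without any 1 of the DMSO and Degrader libraries (0.18 to 0.26), that of LINC02649 without DMSO replicate 2 or Degrader replicate 1 (0.27 to 0.61), those of LINC01006 (0.29 to 0.43) and LINC02062 (0.24 to 0.32) without DMSO replicate 1 or Degrader replicate 2, and that of LINC00939 without Degrader replicate 2 (0.49 to 0.54). Of the 48 called under Degrader, 47 had the same sign under GDC0068. The matching shares over all intervals are not given here, so these counts do not set the members apart.

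Set against each other, Degrader and GDC0068 differed at 1 member. LINC02593 was lower under Degrader by -0.36 on the log2 scale (SE 0.053, edgeR adjusted p = 0.022), beside 0.266% of all intervals called (0.116% higher and 0.151% lower). DESeq2 also called 0 higher and 1 lower, beside 136 of all intervals. At an unadjusted edgeR p under 0.05 there were 17 higher and 21 lower, 38 of 358 members beside 2811 of 19902 intervals. With the replicate block, 13 members were higher and 10 lower under Degrader, beside 10.4% of all intervals (5.03% higher and 5.35% lower). Among these, with block adjusted p, were LINC02067 (0.41, SE 0.11 without the block, 1.04e-05), LINC02680 (0.31, 5.17e-04), LINC01424 (-0.35, 0.00449), LINC02615 (0.22, 0.00493), LINC01619 (0.22, 0.00353), LINC00472 (-0.23, 0.0129) and LINC00160 (0.37, 0.0156). The median difference over members was 0.013, against -0.004 over all intervals. The call of LINC02593 was lost without any 1 of the GDC0068 and Degrader libraries (-0.41 to -0.31), when no member was called (16 to 56 at an unadjusted p under 0.05). The doses differ, and a p that misses the threshold does not show that the compounds act alike.

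Other groups of intervals are set beside the members as a description. Under Degrader, 50 of 567 named antisense intervals rose and 23 fell (median 0.048), 233 of 4084 clone-named intervals rose and 125 fell (median 0.035), and 1043 of 12728 protein-coding intervals rose and 1334 fell (median -0.012). Under GDC0068 the counts were 11 and 3 for named antisense (median 0.073), 61 and 28 for clone-named (median 0.058) and 227 and 315 for protein-coding intervals (median -0.005). The groups named as noncoding thus had more calls higher than lower under both compounds, and the coding group fewer. The share above 0 under Degrader was 59.3% for named antisense, 55.3% for clone-named and 47.2% for protein-coding intervals. Under GDC0068 it was 67.9%, 61.0% and 48.6%, so the named antisense shares were near those of the members.

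**Figure D3:**
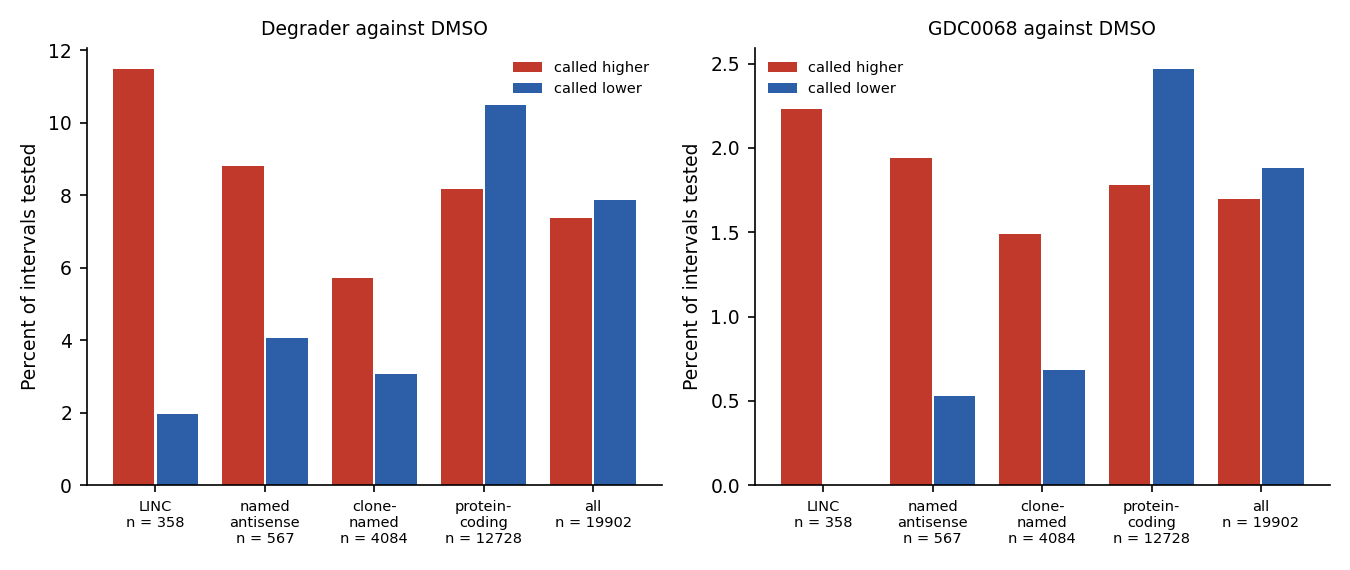
Percent of intervals tested that were called higher (red) or lower (blue) against DMSO at an edgeR adjusted p under 0.05, by kind of name, for Degrader and for GDC0068 (y axes differ and start at 0). LINC intervals (n = 358) had 11.5% higher and 1.96% lower under Degrader, and protein-coding intervals 8.19% and 10.5%.

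Calls depended on level. Under Degrader, of 105 members under 5 CPM 2 rose (1.90%) and 1 fell (0.952%), beside 1.74% and 1.64% of all intervals at that level. Of 157 members at 5 to 20 CPM 14 rose (8.92%) and 2 fell (1.27%), beside 4.77% and 4.94% of all intervals. Of 96 members at 20 CPM or more 25 rose (26.0%) and 4 fell (4.17%), beside 10.6% and 11.4% of all intervals. By length, the members' median log2 change under Degrader was -0.029 under 3 kb, 0.011 at 3 to 10 kb, 0.101 at 10 to 50 kb and 0.141 at 50 kb or more. Protein-coding intervals ran in the same order at lower values, from -0.082 under 3 kb through -0.049 and -0.015 to 0.026. Under GDC0068 the members' medians did not follow that order (0.106, 0.059, 0.070 and 0.063). Those of protein-coding intervals were 0.072, 0.009, -0.011 and -0.010, so both groups were highest under 3 kb. Among the 300 tested members that overlap no other interval, 27 rose and 5 fell under Degrader (median 0.055). Among the 58 that overlap one, 14 rose and 2 fell (median 0.141). The part of length and of overlapping intervals in the members' shift was not tested.

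Under Degrader, the nearest protein-coding interval was called for 15 of the 48 called members (31.2%) and for 75 of all 358 members tested. In the 15 pairs with both called, the change was in the same direction in 9 pairs and the opposite direction in 6. Over all 358 pairs the sign was the same in 197 (55.0%), and Pearson's r of the log2 fold changes was 0.162; for the 253 pairs with a member at 5 CPM or more it was 0.283. Pairs come from the same libraries, some share a neighbour, and these values are descriptions. With the replicate block both were called in 36 pairs, 25 in the same and 11 in the opposite direction. The same-direction count was 4 without DMSO replicate 1, 5 without DMSO replicate 2 and 3 without Degrader replicate 2. It was 5 over members that overlap no other interval.

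The pairs named here were picked because both sides were called. Besides those given above, LINC01359 rose with JAK1 (0.36, SE 0.085 and 0.22, SE 0.062), a cytokine receptor kinase gene 13081 bp away on the same strand. LINC01578 rose with CHD2 (0.24, SE 0.055 and 0.27, SE 0.063), a chromatin remodeller gene. LINC01578 was at 183 and 189 CPM under DMSO, 196 and 210 under GDC0068, and 215 and 226 under Degrader, and CHD2 at 646 and 652, 687 and 747, and 756 and 808 CPM. In both, the arms ran in that order without overlap. These calls had edgeR adjusted p of 0.0144 and 0.0336 for the first pair and 0.0124 and 0.0145 for the second. Over the 15 pairs, both calls held in every fit without 1 library for LINC01619 with BTG1, LINC02067 with SPTSSB and LINC02340 with RPL21. LINC01578 (0.20 to 0.28), SAMD11 (-0.33 to -0.21) and UBE2G2 (-0.44 to -0.29) lost their calls without DMSO replicate 1 or Degrader replicate 2, and CHD2 (0.21 to 0.32) also without DMSO replicate 2. RAB18 (0.20 to 0.23), JAK1 (0.19 to 0.25), IRF2 (0.18 to 0.26) and RFC4 (-0.29 to -0.20) lost theirs without any 1 of the DMSO and Degrader libraries, IRF2 also with DESeq2, and LINC01359 (0.29 to 0.43) without all but Degrader replicate 1.

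In opposite directions, LINC02062 (now CHD1-DT) rose while CHD1, a chromatin remodeller gene whose start lies 205 bp away, fell. LINC02062 was at 79.8 and 84.2 CPM under DMSO, 101 and 98.7 under GDC0068, and 97.8 and 101 under Degrader; CHD1 was at 98.8 and 102, 99.0 and 95.4, and 89.5 and 88.7 CPM. The LINC interval was higher in all treated libraries, and CHD1 was lowest in the Degrader libraries. LINC02340 and LINC00412 overlap each other and share current symbol LINC00412, and are 1 locus that every count here includes as 2 members and 2 pairs. They rose by 0.41 (SE 0.071) and 0.37 (SE 0.092) while RPL21, a ribosomal protein gene whose start lies 303 bp from that of LINC02340, fell by 0.35 (SE 0.061). RPL21 went from 45.8 and 48.2 CPM under DMSO to 37.0 and 36.9 under Degrader, and LINC02340 from 46.3 and 47.5 to 58.4 and 66.6 CPM. Other opposite pairs were LINC00885 with the transferrin receptor gene TFRC (0.23 and -0.18) and LINC00638 with ZBTB42 (0.29 and -0.29). All these members and neighbours had an edgeR adjusted p between 0.00316 (LINC02340) and 0.0388 (TFRC). LINC02340 and RPL21 were called in every fit without 1 library. CHD1 (-0.20 to -0.15, also lost with DESeq2), TFRC (-0.21 to -0.16) and LINC00638 (0.27 to 0.30) lost their calls without any 1 of the DMSO and Degrader libraries, LINC00885 (0.15 to 0.30) without DMSO replicate 2 or either Degrader library, LINC02062 (0.24 to 0.32) without DMSO replicate 1 or Degrader replicate 2, LINC00412 (0.22 to 0.50) also without DMSO replicate 2, and ZBTB42 (-0.33 to -0.25) without DMSO replicate 2 or Degrader replicate 1.

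**Figure D4:**
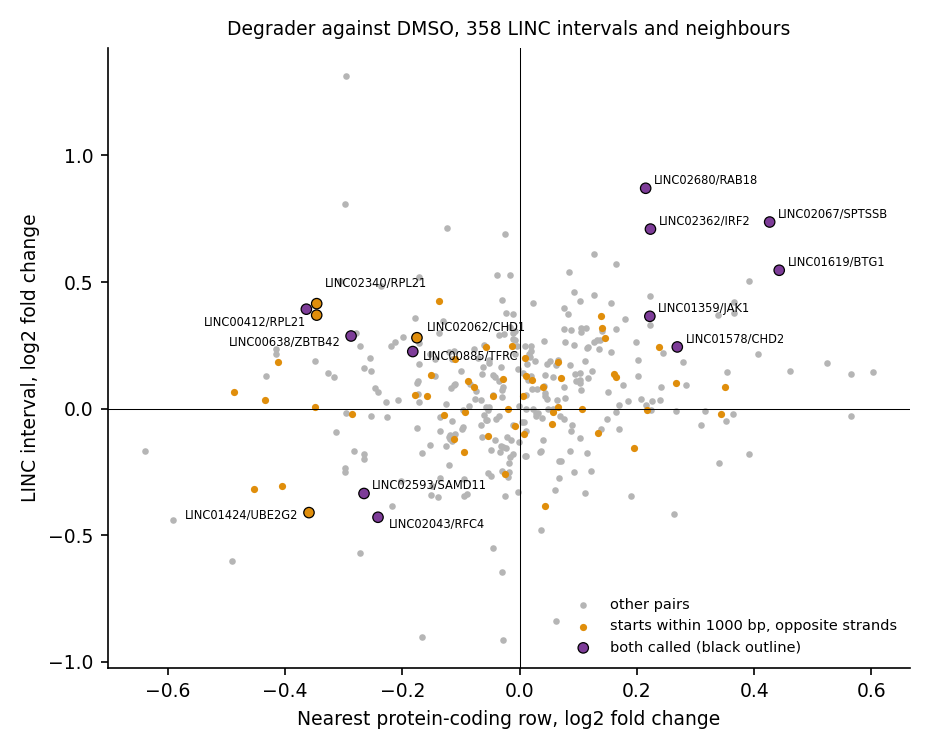
Log2 fold change of each LINC interval (y axis) against that of its nearest protein-coding interval (x axis) under Degrader, for 358 pairs. Orange points are head-to-head pairs with starts within 1000 bp, and black outlines mark the 15 pairs in which both were called, 9 in the same and 6 in opposite quadrants of sign, with names beside all but 1.

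Among the 55 head-to-head pairs the sign was the same in 28 (50.9%), and both were called in 4, of which LINC01424 with UBE2G2 moved the same way and the others, CHD1 and RPL21 (the latter with both members of its 1 locus), in opposite ways. Under GDC0068 the only pair with both called was LINC01619 with BTG1 (0.33 and 0.40), and with the replicate block there were 14 such pairs, 12 of them in the same direction. Between Degrader and GDC0068 there was no such pair (0), and 8 with the block, 5 in the same direction.

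Of 12 LINC RNAs written about in breast cancer or estrogen response, 7 are members. Under Degrader 2 rose, LINC00160 from 10.8 and 9.52 to 15.0 and 13.9 CPM (0.50, SE 0.11, edgeR adjusted p = 0.00942) and LINC00885 from 91.0 and 81.6 to 102 and 99.7 CPM (0.23, SE 0.058, 0.023), and 1 fell, LINC00472, beside 7.39% higher and 7.88% lower of all intervals. LINC00511, the most transcribed of the list, was at 125 and 129 CPM under DMSO, 140 and 126 under GDC0068 and 118 and 131 under Degrader, and was not called. LINC00052, LINC00839 and LINC01488 stayed under 5 CPM in every library and were not called. Under GDC0068 none of the 7 was called by edgeR (2 at an unadjusted p under 0.05), and LINC00885 was with the replicate block (adjusted p = 0.0179). The list's median was -0.032 under Degrader and 0.061 under GDC0068, beside -0.001 and 0.010 over all intervals. The calls of LINC00160 were lost without DMSO replicate 2 or Degrader replicate 1 (0.42 to 0.60), and those of LINC00885 also without Degrader replicate 2 (0.15 to 0.30).

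Of 13 LINC names of transcripts with a described small protein or assigned role, 3 are members. LINC00467 was at 81.9 and 90.3 CPM under DMSO, 96.9 and 104 under GDC0068 and 98.2 and 111 under Degrader, and rose under Degrader by 0.28 (SE 0.070, edgeR adjusted p = 0.0196), 1 of 3 called higher beside 7.39% of all intervals. Its replicate 2 library was the higher in each arm, and the block adjusted p was 2.12e-06 under Degrader and 1.73e-04 under GDC0068. LINC00665 (13.0 to 14.3 CPM) and LINC01133 (0.836 to 1.62 CPM) were not called in any comparison. The call of LINC00467 was lost without DMSO replicate 1 or Degrader replicate 2 (0.18 to 0.37).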

How the data were processed

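PRO-seq libraries of T47D cells, 2 per arm, were analysed from 1 table of raw counts per gene interval, the authors' deposited counts. Per the submitters' processing notes, cutadapt 1.14, Bowtie 1.2.2, SAMtools 1.3.1, HISAT2 2.2.1 and limma were used, with the builds hg38 and GRCh38 and the fly build dm3, whose role they do not state. The counting tool, the use of strand, the treatment of duplicates, the part of a gene counted and any spike-in are not given in the sources used here. Without a spike-in factor, changes are relative to the bulk of intervals, counting error assumes independent reads, and overlapping transcription can enter an interval. Coordinates are those of the table, with starts written counting from 1.

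The count test was edgeR 4.0.16 in R 4.3.3: filterByExpr (431 intervals removed, 19902 tested), TMM scaling, and 1 quasi-likelihood fit over the 6 libraries with a term per arm (3 residual degrees of freedom, common biological coefficient of variation 5.51%). A call is a Benjamini-Hochberg adjusted p under 0.05 over all intervals tested. The script was tested on simulated counts with 2-fold changes and no replicate effect. Those changes are larger than any called for a member, so that run does not bear on changes of the sizes reported here. The labels number libraries 1 and 2 in each arm, and the series describes 2 independent experiments; deviations of same-numbered libraries from their arm means correlated at 0.1766 (DMSO with GDC0068), 0.2196 (DMSO with Degrader) and 0.2036 (GDC0068 with Degrader), so values with the replicate number as a block are given beside the counts of calls. How far the 2 libraries of an arm differ as cultures is known only from that description.

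Named members were, in each comparison, the up to 8 highest and 8 lowest called changes whose arms do not overlap and whose mean is 1 CPM or more, the 8 highest in CPM per kb, the 4 highest in CPM, and the members of both lists, with their neighbours; other names were picked after their values were seen. A protein-coding interval is one whose symbol matches a coding gene of GRCh38.p14 at an overlapping position. The values of 1 pair of intervals are not reported here. The members, lists and rules were chosen with earlier results of these data known. Alternatives were DESeq2 1.42.0, DESeq2 size factors in edgeR, no filter, a mean of at least 1 CPM, robust spread, the 4 libraries compared, each library left out, members without overlap, and the nearest coding interval on the same strand.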

Additional observations from a re-analysis of the deposited data

How the results depend on the processing

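With the replicate block the counts of called members rose from 48 to 84 under Degrader, from 8 to 50 under GDC0068 and from 1 to 23 between the compounds, and pairs called in the same direction from 9 to 25, from 1 to 12 and from 0 to 5; all calls made without the block were kept. Leaving out 1 library gave 10 to 49 called members under Degrader, 0 to 7 under GDC0068 and 0 to 1 between the compounds (edgeR; at an unadjusted p under 0.05 the fits with 0 gave 44 and 50 under GDC0068 and 16 to 56 between the compounds), and 3 to 9, 0 to 1 and 0 same-direction pairs. Against DMSO, calls over all intervals also fell without any 1 library of the arms compared. With only the 4 libraries compared, 5 members were called under GDC0068, beside 528 of all intervals. DESeq2 called 34 members under Degrader, beside 2275 of all intervals. The median log2 fold change over members under Degrader was 0.074 with DESeq2, 0.074 at a mean of at least 1 CPM and 0.050 to 0.083 without 1 library. Under GDC0068 it was 0.065 with DESeq2, with DESeq2 size factors or with no filter, 0.064 with 4 libraries and 0.060 to 0.093 without 1 library. Between the compounds it was 0.005 at a mean of at least 1 CPM and -0.006 to 0.023 without 1 library, so its sign rests on Degrader replicate 1. Same-direction pairs numbered 5 under Degrader and 0 under GDC0068 over members that overlap no other interval, 2 under GDC0068 with DESeq2 and 1 between the compounds with robust spread. Of 51 named results, 42 were called under every setting that gave them an adjusted p and kept all 6 libraries or the 4 compared. DESeq2 gave one for 49 of the 51, not for LINC01219 and LINC01607 under Degrader. The calls lost without 1 library are given above, and 0 results reversed. The causes of these shifts were not tested. With 2 libraries per arm no permutation test can pass 0.05, and members under 5 CPM gave 3 of the 48 Degrader calls.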
